A study of Mus musculus with 12 samples.

Results

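The gasdermin genes followed here are Gsdmc, its paralogs Gsdmc2, Gsdmc3 and Gsdmc4, and Gsdmd. They were taken by symbol from the gene tables of mouse urothelium, the epithelium that lines the bladder. All 5 symbols had a row in the tables of both time points, out of 23337 genes. The label under which they were grouped ties them to umbrella cells, the superficial cells of the urothelium. RNA was measured in whole peeled urothelium, however, so no count can be assigned to a cell type, and in such bulk samples fewer cells of a type and less RNA per cell cannot be told apart.

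The study compared urothelium of mice labelled Stag2-WT with that of mice labelled Stag2-KO, Stag2 being a subunit of the cohesin ring that holds and loops chromatin. Every mouse, WT and KO alike, received a diet with TMX, and tissue was taken 1 week or 1 month after the diet began. There were 12 libraries in 4 groups of 3, a group for each genotype and time, each from a separately numbered animal. The labels name neither the Cre driver or the cells in which it acts, nor the structure of the Stag2 allele, nor strain, age or sex.

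Gasdermins are cytosolic proteins held inactive by their C-terminal part until a protease separates the pore-forming N-terminal part, which then opens pores in the plasma membrane. Cell death brought about by such pores, with release of cell contents and inflammatory cytokines, is called pyroptosis. Gsdmd is the gasdermin cleaved by the inflammatory caspases, and the Gsdmc proteins, best known in mouse from the gut epithelium, belong to a family that is expanded in mouse. Umbrella cells cover their luminal face with plaques of uroplakins, the proteins encoded by the Upk genes, which were used here as their markers.

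The Gsdmc genes form a cluster on the minus strand of chromosome 15 in build mm10 (GRCm38), 136.3 kb from end to end. Gsdmc lies at chr15:63775968-63808759, Gsdmc2 at chr15:63824346-63845177, Gsdmc3 at chr15:63857724-63878558 and Gsdmc4 at chr15:63891264-63912297. Gsdmd is on the plus strand of the same chromosome at chr15:75862327-75867408, 11.95 Mb away from the cluster. The coding sequences of Gsdmc2 and Gsdmc3 were 97.1% identical, and Gsdmc4 was 93.0% identical to either. Gsdmc was 82.8%, 83.1% and 84.0% identical to Gsdmc2, Gsdmc3 and Gsdmc4, and Gsdmd stood at 51.5% to 52.3% against the 4 Gsdmc genes.

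The ends of the 4 coding sequences are shown to let a reader see how alike the paralogs are. The libraries were read from the 3′ ends of transcripts, which lie further downstream in the untranslated part that is not printed here. The gene model printed for Gsdmc3 ends with its coding sequence of 1443 bases, although the annotated gene runs further downstream. Each stretch is from the last exon, on the minus strand of chromosome 15, from the mm10 genome with GENCODE M21 gene models. Capitals mark bases that differ from Gsdmc2, an inserted base included. The windows are chr15:63776677-63776737, chr15:63824878-63824977, chr15:63858271-63858370 and chr15:63891804-63891903, in the order given.
Gsdmc: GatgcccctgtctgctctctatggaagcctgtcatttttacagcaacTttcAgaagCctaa
Gsdmc2: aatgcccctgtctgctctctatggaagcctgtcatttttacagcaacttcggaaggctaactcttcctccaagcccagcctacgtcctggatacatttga
Gsdmc3: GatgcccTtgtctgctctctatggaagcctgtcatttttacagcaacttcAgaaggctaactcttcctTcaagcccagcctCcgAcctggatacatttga
Gsdmc4: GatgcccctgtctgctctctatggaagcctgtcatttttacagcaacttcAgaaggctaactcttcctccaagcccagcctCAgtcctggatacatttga
Over these 100 bases Gsdmc3 differed from Gsdmc2 at 6 positions and Gsdmc4 at 4. The longest run without a difference was 42 bases for Gsdmc3 and 49 for Gsdmc4. Gsdmc stopped earlier, after 61 bases with 3 mismatches and 1 inserted base.

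Over the last 300 bases of the annotated transcripts, 63.0% of all 50-base words of Gsdmc2 also occurred in another Gsdmc paralog. The share was 45.7% for Gsdmc3, 18.9% for Gsdmc, 12.7% for Gsdmc4 and 0 for Gsdmd. With 75-base words it was 48.9% for Gsdmc2, 28.8% for Gsdmc3 and 0 for Gsdmc4. Over the last 500 bases the share of 50-base words was 42.8% for Gsdmc2 and 31.9% for Gsdmc3. For Gsdmc and Gsdmc4 it was 29.7% and 8.0%. The coding gene models of each gene were pooled, so the words of Gsdmc3 include coding bases from the model printed above. The read length, and what was done with reads that match several places, are not given in the sources used here, so counts of Gsdmc2 and Gsdmc3 in particular may be split or lost between them. The summed counts of the 4 Gsdmc genes are therefore given beside the single genes. The sum does not depend on how counted reads were split between the paralogs, but it would still miss reads that were discarded.

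Library totals ran from 5580961 to 9497088 counts, so that 3 counts, taken as the detection floor, equal 0.305 to 0.632 CPM, counts scaled to the library total with the trimmed mean of M-values (TMM). Stag2 itself was lower in KO than in WT at both times, at 59.54 to 72.22 CPM against 106.2 to 151.1 at 1 week, and 19.27 to 39.4 against 45.15 to 64.61 at 1 month. Counts of Xist, the transcript of the inactive X chromosome, were at most 13 in every WT library but 6392 to 10406 in the KO libraries of 1 week and 7764 in KO replicate 3 of 1 month, with 28 and 2 in the other KO libraries of that time. At 1 week, and between WT and KO replicate 3 of 1 month, genotype and Xist status therefore cannot be told apart. In mice Xist status marks sex. All libraries of 1 week were batch 1, while at 1 month replicates 1 and 2 of both genotypes were batch 2 and replicate 3 of both was batch 3, so time and batch cannot be told apart either. KO replicate 3 of 1 week stood apart from the rest in composition, and for WT replicate 3 of 1 month the title and the library name carry different animal numbers. P-values below measure the spread between these animals.

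Of the Gsdmc genes, Gsdmc2 had the most counts in each of the 12 libraries, followed by Gsdmc3. Gsdmc2 stood at 281.4, 678.6 and 288.5 CPM in WT replicates 1, 2 and 3 at 1 week, and at 186.1, 866.1 and 193.7 CPM in KO replicates 1, 2 and 3. At 1 month its level was 44.22, 41.51 and 337.3 CPM in WT and 128.3, 112.7 and 497 CPM in KO. Replicate 2 of either genotype was high at 1 week, and replicate 3 of either genotype, the batch 3 pair, was high at 1 month, so WT and KO values overlapped at both times.

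Gsdmc3 followed the same libraries over a wider range. Its level was 56.11, 182.7 and 55.84 CPM in WT at 1 week against 48.53, 457.5 and 38.38 CPM in KO. At 1 month it was 2.316, 7.7 and 118.6 CPM in WT against 35.82, 38.66 and 198.3 CPM in KO. The highest library thus held 198 times the level of the lowest, compared with 20.9 times for Gsdmc2.

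Gsdmc, the namesake of the cluster, had far fewer counts than Gsdmc2. It stood at 7.37, 23.15 and 12.69 CPM in WT against 8.195, 27.99 and 13.26 CPM in KO at 1 week. At 1 month it stood at 0.2106, 2.066 and 11.18 CPM in WT, the first of these from 1 count, and at 5.5, 3.29 and 14.57 CPM in KO. Its high libraries were those of Gsdmc2 and Gsdmc3, as were its low WT libraries of batch 2 at 1 month. The low libraries of 1 week differed: Gsdmc was lowest in WT replicate 1, but Gsdmc2 and Gsdmc3 were lowest in KO replicates 1 and 3.

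Gsdmc4 had a different distribution. It was counted 4, 6 and 6 times in WT at 1 week, or 0.4755, 0.6876 and 0.6092 CPM, and 42, 157 and 45 times in KO, or 5.378, 16.9 and 8.903 CPM. At 1 month it had counts of 0, 0 and 1 in WT against 1, 0 and 3 in KO, all at or under the floor. Every KO library of 1 week was thus above every WT library, and all 6 libraries of 1 month were near 0.

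Gsdmd was the steadiest of the 5 genes. It stood at 18.9, 17.3 and 18.88 CPM in WT against 16.65, 18.2 and 26.11 CPM in KO at 1 week. At 1 month its level was 51.59, 47.33 and 25.18 CPM in WT and 43.88, 47.54 and 29.28 CPM in KO. The 4 libraries of batch 2 were the highest, WT and KO overlapped at both times, and the whole range was 3.1-fold.

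**Figure D1:**
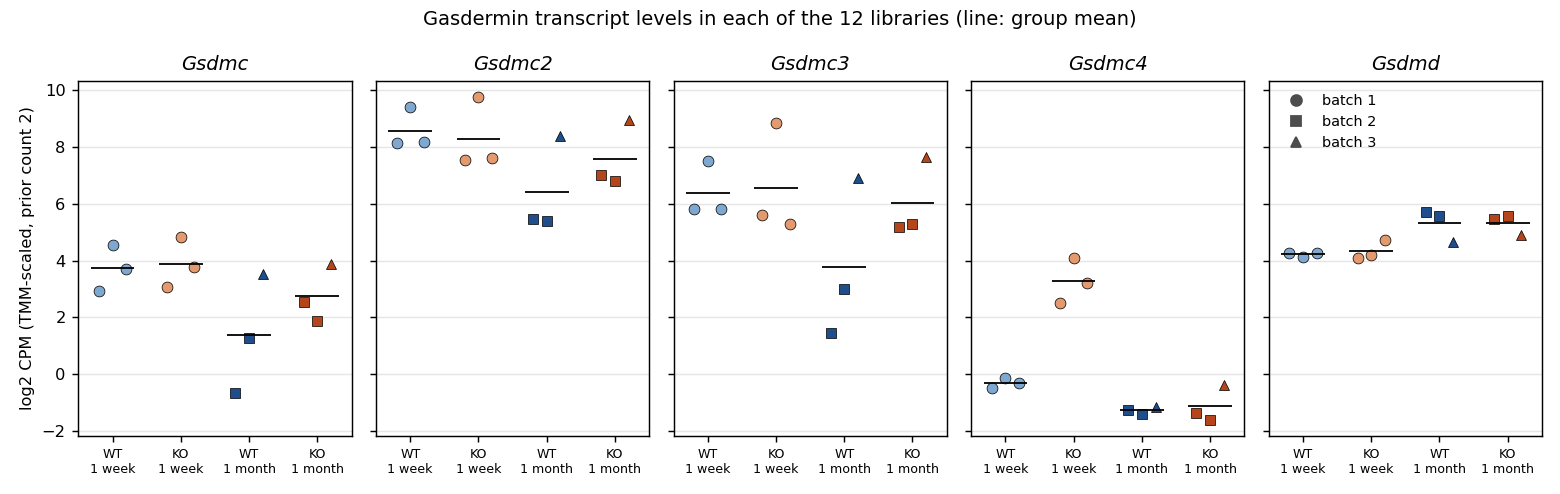
Log2 of TMM-scaled CPM with a prior count of 2 (y axes) of Gsdmc, Gsdmc2, Gsdmc3, Gsdmc4 and Gsdmd in the 12 libraries by genotype and time (x axis), each point 1 library, with lines at group means and the batch shown by the marker. Gsdmc2 and Gsdmc3 are high in replicate 2 of either genotype at 1 week and in batch 3 at 1 month, and Gsdmc4 is above the floor in KO at 1 week.

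The spread between replicates set these genes apart from one another before any comparison of genotypes. The SD of log2 CPM within groups was 1.27 for Gsdmc2, 1.31 for Gsdmc and 1.91 for Gsdmc3. The median over the 13122 genes tested was 0.53, which placed them at percentiles 96.9, 97.4 and 99.7 of all genes. Each group of 1 month holds libraries of batch 2 and batch 3, so this SD includes the difference between batches. On the log2 scale batch 3 was above batch 2 by 2.97 in WT and 2.04 in KO for Gsdmc2. For Gsdmc3 it was above by 4.66 and 2.4. Gsdmd had an SD of 0.38 (percentile 24.7) and Gsdmc4 one of 0.53 (percentile 49.4). Only 6 of the 12 libraries, all of 1 week, held Gsdmc4 above the detection floor. At 1 month its log2 CPM was set largely by the prior count and library total. Its SD therefore cannot be read as a typical spread. Gsdmc, Gsdmc2 and Gsdmc3 rose and dipped largely in the same libraries. Over the 12 libraries Pearson's r of log2 CPM was 0.96 between Gsdmc2 and Gsdmc3, 0.92 between Gsdmc and Gsdmc2 and 0.93 between Gsdmc and Gsdmc3. With each batch centred on its mean, r was 0.93, 0.77 and 0.89. These points share batches and, for the most alike pairs, sequence, so r is given as a description. Gsdmc4 had r of 0.44 to 0.55 with the other paralogs as measured and 0.05 to 0.18 with batches centred. The r and rho of Gsdmc4 include its libraries of 1 month, all at or under the floor. They cannot show whether it followed its paralogs there. Spearman's rho of Gsdmc4 as measured was higher, at 0.82 with Gsdmc, 0.69 with Gsdmc2 and 0.55 with Gsdmc3, and 0.21, -0.13 and -0.08 with batches centred.

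At 1 week none of the 5 genes passed the test, edgeR's quasi-likelihood test with Benjamini-Hochberg adjustment over 12754 genes at a threshold of 0.05. The background was low too: 8 genes, or 0.0627% of those tested, were called, and 0.0157% were called higher in KO. At an unadjusted p under 0.05, 1 of the 5 members passed, Gsdmc4, against 15.5% of all genes.

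Gsdmc4 averaged 0.5907 ± 0.107 CPM in WT against 10.4 ± 5.91 CPM in KO at 1 week (SD, n = 3 each). The fitted difference was 4.12 on the log2 scale (SE 0.59), a 17.4-fold higher level in KO, with an edgeR adjusted p of 0.0857 that misses the threshold. It ranked at 23 among the 12754 genes by p. KO lay wholly above WT, as did 13.2% of all genes tested. Under other settings the adjusted p ran from 1.42e-07 with DESeq2 to 0.507 without WT replicate 3, and the log2 difference stayed between 3.55 and 4.42. Without the low-count filter the edgeR adjusted p was 0.0314, without KO replicate 1 it was 0.0412, and without KO replicate 3, the library that stood apart, it was 0.0247.

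The KO library of 1 week with the most counts of Gsdmc4, replicate 2 with 157, also held the most of Gsdmc2 and Gsdmc3, 8044 and 4249. The order differed among other libraries: WT replicate 2 held 5922 counts of Gsdmc2 and 6 of Gsdmc4, and KO replicate 3 held 979 of Gsdmc2 and 45 of Gsdmc4. The part of shared reads in these counts was not tested. At 1 month KO replicate 3, the KO library with high Xist, held 3 counts of Gsdmc4, and the other KO libraries 1 and 0.

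The remaining members differed between genotypes at 1 week by less than the spread between replicates. Gsdmc2 averaged 416.2 ± 227 CPM in WT and 415.3 ± 390 CPM in KO, a log2 difference of 0.01 (SE 0.68, edgeR adjusted p = 0.996). Gsdmc3 averaged 98.2 ± 73.1 and 181.5 ± 239 CPM, a difference of 0.90 (SE 0.99, edgeR adjusted p = 0.673). Gsdmc gave 14.4 ± 8.03 and 16.48 ± 10.3 CPM, and Gsdmd, the substrate of the inflammatory caspases, 18.36 ± 0.917 and 20.32 ± 5.08 CPM, with log2 differences of 0.22 (SE 0.58) and 0.17 (SE 0.31). The sum of the Gsdmc genes was 345.3, 885.1 and 357.7 CPM in WT and 248.2, 1368 and 254.2 CPM in KO, a log2 difference of 0.25 (SE 0.74). KO replicate 2 carried these means: without it the differences were -1.13 for Gsdmc2, -1.18 for Gsdmc3, -0.43 for Gsdmc and -1.08 for the sum. Without KO replicate 3 the difference of Gsdmd was -0.09, and without WT replicate 1 or 3 that of Gsdmc2 was -0.21 or -0.22. Without WT replicate 1 that of Gsdmc was -0.11.

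At 1 month Gsdmc2 rose in KO. It averaged 141 ± 170 CPM in WT and 246 ± 218 CPM in KO, and with batch as a term the difference was 1.18 on the log2 scale (SE 0.24, 2.27-fold, edgeR adjusted p = 0.0292, 3 libraries per genotype). It was 1 of 4 members tested that passed, where 269 of 12139 genes, or 2.22%, were called, and 0.997% were called higher in KO. At an unadjusted p under 0.05, Gsdmc, Gsdmc2 and Gsdmc3 passed, as did 21.5% of all genes. KO was above WT in both batches, by 1.48 on the log2 scale in batch 2 (2 libraries per genotype) and by 0.56 in batch 3 (1 per genotype). The batch 3 pair also differed in Xist status, so its differences cannot be assigned to genotype alone. The pooled groups overlapped because the WT library of batch 3 was above both KO libraries of batch 2, and without the batch term the difference was 0.77 with an edgeR adjusted p of 0.798.

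The Gsdmc2 call rested on all 4 libraries of batch 2. The edgeR adjusted p was 0.115 without WT replicate 1, 0.174 without WT replicate 2, 0.0773 without KO replicate 1 and 0.0675 without KO replicate 2. With batch 2 alone the difference was 1.53 (edgeR adjusted p = 0.00123). Without WT replicate 3, the library with the unclear animal number, it was 1.52 (edgeR adjusted p = 0.0011). That fit leaves KO replicate 3 to the batch term, so it in effect repeats the fit of batch 2.

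Gsdmc3 averaged 42.87 ± 65.6 CPM in WT against 90.93 ± 93 CPM in KO at 1 month. Its difference of 2.01 on the log2 scale (SE 0.53) had an edgeR adjusted p of 0.0942 and missed the threshold. Within batch 2 KO exceeded WT by 3.00, and within batch 3 by 0.74. Over the alternatives the difference of Gsdmc3 ran from 1.04 without the batch term (edgeR adjusted p = 0.801) to 2.90 in batch 2 alone (edgeR adjusted p = 0.00104), and the adjusted p was lowest without the low-count filter, at 2.47e-06. With 1 library left out the edgeR adjusted p was lowest without WT replicate 3, at 0.000489 (difference 2.89), and without KO replicate 3, at 0.000588 (2.89). Leaving out replicate 3 of either genotype leaves the other to the batch term, so those fits in effect repeat that of batch 2. The edgeR adjusted p was highest without WT replicate 2, at 0.326 (2.09), and the lowest difference was 1.47, without WT replicate 1.

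Gsdmc averaged 4.484 ± 5.87 CPM in WT and 7.785 ± 5.97 CPM in KO, a log2 difference of 1.20 (SE 0.54, edgeR adjusted p = 0.227), or 1.88 within batch 2 and 0.37 within batch 3. Gsdmc4 was too low at 1 month to be tested. For Gsdmd the level was 41.37 ± 14.2 CPM in WT and 40.23 ± 9.66 CPM in KO, a difference of 0.00 (SE 0.21, edgeR adjusted p = 0.992), or -0.12 within batch 2 and 0.22 within batch 3. The gasdermin of the inflammasome pathway thus showed no difference beyond an SE of 0.21 at the time when Gsdmc2 rose.

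The sum of the Gsdmc genes at 1 month was 46.74, 51.27 and 467.3 CPM in WT and 169.7, 154.6 and 710.4 CPM in KO. Its log2 difference was 1.35 (SE 0.26), or 2.55-fold, made up of 3.29-fold in batch 2 and 1.52-fold in batch 3. Since the sum was formed over chosen genes, it is given without a p-value. The difference between batches exceeded that between genotypes: the batch 3 library held 9.47 times the mean of batch 2 in WT and 4.38 times in KO. For Gsdmc3 alone these ratios were 25.3 and 5.3, while Gsdmd went the other way with 0.512 and 0.644.

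**Figure D2:**
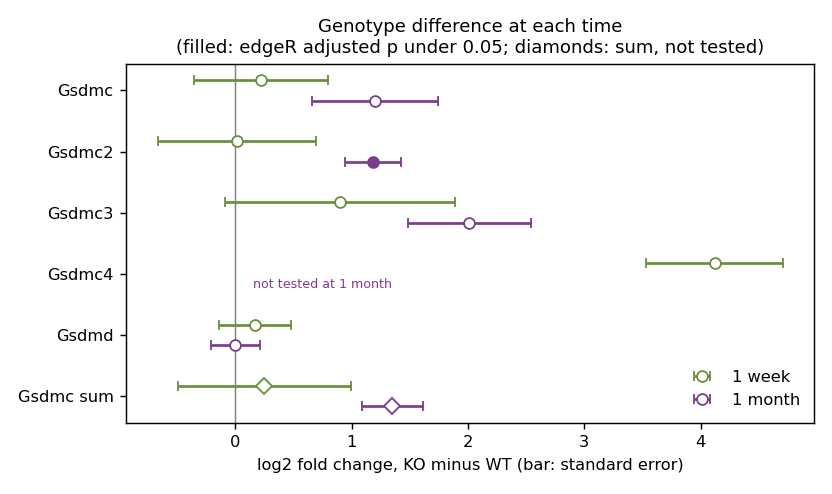
Log2 fold change of KO against WT (x axis) for each gasdermin gene and for the Gsdmc sum (y axis) at 1 week and 1 month, with bars of 1 standard error, filled where the edgeR adjusted p is under 0.05 and diamonds for the untested sum. The filled point is Gsdmc2 at 1 month, at 1.18, and Gsdmc4 at 1 week has the highest value, 4.12.

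Whether the genotype difference itself differed between 1 month and 1 week was tested over all 12 libraries. No member passed, and none of the 5 had an unadjusted p under 0.05. The change in the log2 difference was 1.18 for Gsdmc2 (SE 0.81, edgeR adjusted p = 0.414), 1.23 for Gsdmc3 (SE 1.29), 1.06 for Gsdmc (SE 0.93), -0.15 for Gsdmd (SE 0.35) and -2.40 for Gsdmc4 (SE 2.02, edgeR adjusted p = 0.511). Of 13122 genes, 0 were called, while 19.9% had an unadjusted p under 0.05 and DESeq2 called 917. Without KO replicate 2 of 1 week the change for Gsdmc2 was 2.33 (edgeR adjusted p = 0.0472). The rise of Gsdmc2 at 1 month is therefore not shown to differ from its value at 1 week with all libraries in.

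The make-up of the Gsdmc counts was compared as shares within each library, which depend on how reads were assigned between paralogs. At 1 week Gsdmc2 took 81.5%, 76.7% and 80.7% of the sum in WT and 75%, 63.3% and 76.2% in KO. The mean fell short of WT by 8.12 percentage points in KO, at 71.5% ± 7.12 against 79.6% ± 2.58 (exact two-sided permutation p = 0.1, the smallest that 3 against 3 allows, 0.4 after adjustment over 8 shares). Gsdmc4 took 0.138%, 0.0777% and 0.17% in WT and 2.17%, 1.24% and 3.5% in KO. The exact binomial 95% intervals, which cover counting error only, reached up to 0.37% in WT and down to 1.05% in KO and so did not meet (exact permutation p = 0.1, 0.4 adjusted). Gsdmc3 took 17.5% ± 2.74 in WT and 22.7% ± 9.56 in KO, and Gsdmc 2.77% ± 0.719 and 3.52% ± 1.6 (exact permutation p = 0.7 for either).

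At 1 month the share of Gsdmc2 was 94.6%, 81% and 72.2% in WT and 75.6%, 72.9% and 70% in KO, so the genotypes overlapped. The means were 82.6% ± 11.3 and 72.8% ± 2.81 (exact permutation p = 0.3). Gsdmc3 took 15.1% ± 10.2 in WT and 24.7% ± 3.42 in KO (exact permutation p = 0.3). The WT shares of batch 2 rest on 222 and 273 counts for all paralogs together.

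**Figure D3:**
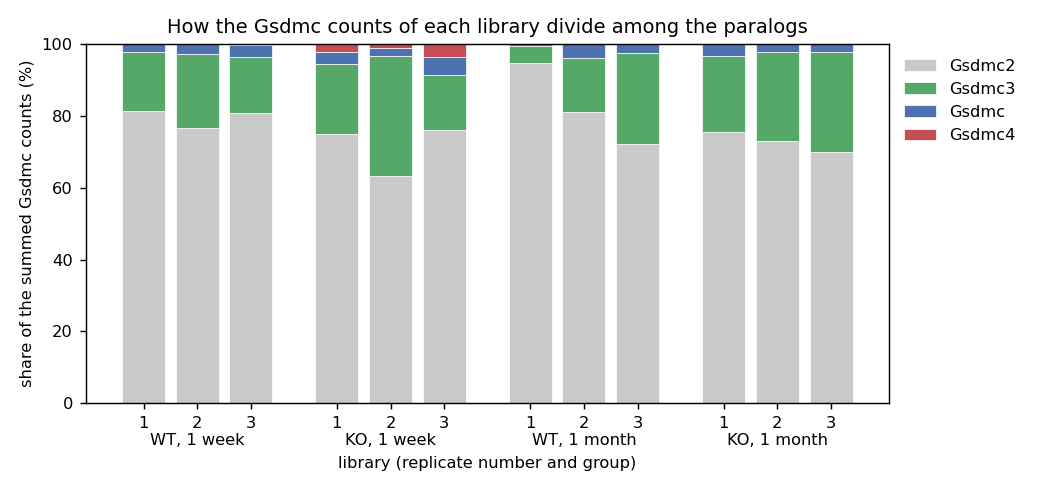
Share of each Gsdmc paralog in the summed Gsdmc counts (y axis, percent) in each of the 12 libraries (x axis, by group and replicate). Gsdmc2 makes up 63.3% to 94.6% and Gsdmc3 most of the remainder, and the Gsdmc4 share reaches 3.5% in KO replicate 3 at 1 week.

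The Gsdmc genes were set beside the umbrella cell markers, the 12 genes of a list that holds the uroplakins and Krt20, the keratin of the superficial layer. Upk2, a uroplakin, stood at 889.4, 727.8 and 1474 CPM in WT against 1603, 568.9 and 1057 CPM in KO at 1 week. At 1 month it stood at 5180, 2211 and 1214 CPM in WT and 2867, 1892 and 830.2 CPM in KO. The library with the highest Gsdmc sum, KO replicate 2 of 1 week at 1368 CPM, had the lowest Upk2, and the library with the lowest sum, WT replicate 1 of 1 month at 46.74 CPM, had the highest. The same held for Upk1a, another uroplakin, at 1964 and 13830 CPM. Over 12 libraries, which share batches, Pearson's r of the Gsdmc sum was -0.90 with Upk2 and -0.88 with Upk1a, and -0.72 and -0.86 with batches centred, while Upk1b gave 0.42 and 0.45, Upk3a -0.28 and 0.02, and Krt20 -0.52 and -0.63. The markers of the list thus differed in sign, and which cells the Gsdmc transcripts came from was not tested and cannot be read from bulk samples.

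**Figure D4:**
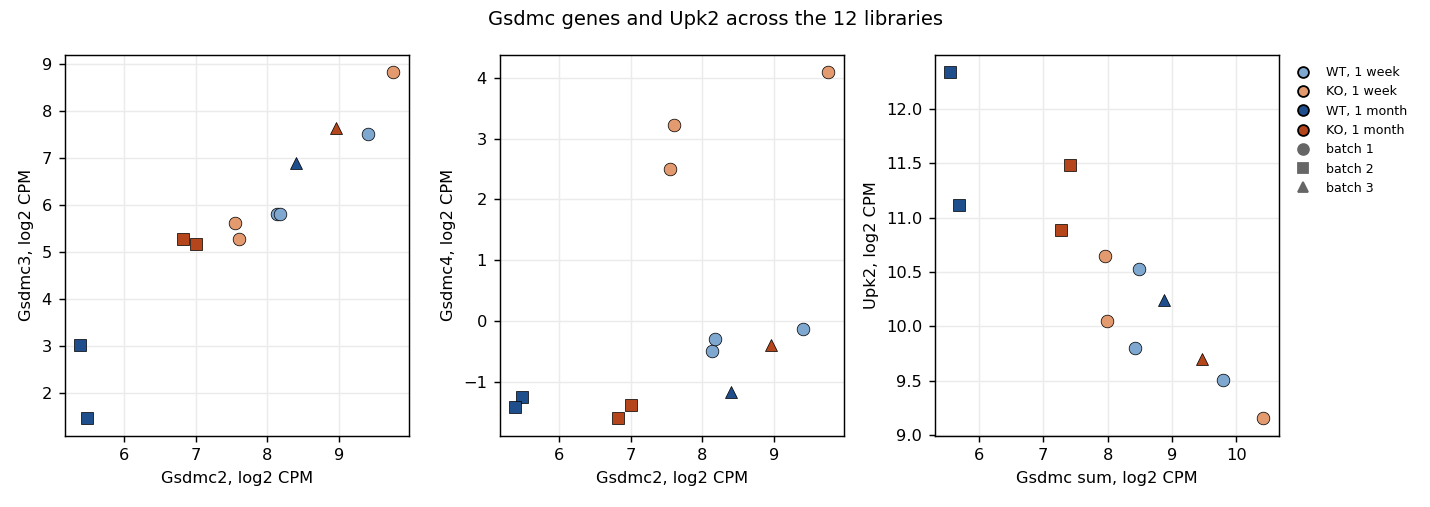
Log2 CPM of Gsdmc2 against Gsdmc3, Gsdmc2 against Gsdmc4, and the Gsdmc sum against the umbrella cell marker Upk2, each point 1 of the 12 libraries, coloured by group. Gsdmc2 and Gsdmc3 rise together, Gsdmc4 separates KO of 1 week from the rest, and Upk2 is lowest in the library where the sum is highest.

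Of the 12 umbrella cell markers tested at 1 month 2 fell in KO, where 2.22% of all genes were called, Krt20 by 1.76 on the log2 scale (SE 0.25, edgeR adjusted p = 0.00601) and Tjp1, a tight junction protein, by 1.12 (edgeR adjusted p = 0.0284). An unadjusted p under 0.05 was found for 8 of the 12, against 21.5% of all genes, and DESeq2 called 4. Of all 12, 11 had a difference below 0 and 1 above, and the list's median was -0.61, against -0.01 for all genes. Its summed level was 15700 to 32400 CPM in WT and 11400 to 15400 CPM in KO. At 1 week 0 of 12 markers were called by edgeR, with 0 at an unadjusted p under 0.05 and 0 by DESeq2, a median of -0.04, and sums of 10300 to 13200 CPM in WT and 9620 to 14600 CPM in KO. Over all genes edgeR called 0.0627% at that time, and 15.5% had an unadjusted p under 0.05.

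Summed levels of other cell types' markers overlapped between genotypes in some lists and not in others, and their part in the gasdermin values was not tested. Summed levels of 9 basal urothelium markers were 3030 to 4290 CPM in WT against 4480 to 6670 CPM in KO at 1 month, and 4000 to 5170 against 3360 to 7780 CPM at 1 week, with the highest value in KO replicate 2, where Gsdmc2 was also highest. Leukocyte markers (9 genes) summed to 163 to 275 CPM in WT against 309 to 624 CPM in KO at 1 week, and to 680 to 1500 against 364 to 445 CPM at 1 month, when 4 of 7 tested were called lower in KO. Over all genes 2.22% were called at 1 month in either direction. Endothelial markers (4 genes) were at 133 to 155 against 218 to 359 CPM at 1 week and 95 to 150 against 167 to 309 CPM at 1 month. Fibroblast and smooth muscle markers (9 genes) were at 3430 to 5670 against 4800 to 10500 CPM at 1 week and 10100 to 14100 against 8200 to 9830 CPM at 1 month. Neutrophil markers (4 with a row) were at 24.4 to 36.3 against 18.6 to 24.1 CPM at 1 week and 19 to 56.2 against 32.6 to 49.9 CPM at 1 month. At 1 week edgeR called 0 markers of these 5 lists, with an unadjusted p under 0.05 for 3 basal, 4 leukocyte, 1 endothelial, 6 fibroblast or smooth muscle and 1 neutrophil marker, and DESeq2 called 1, 2, 1, 2 and 0. At 1 month edgeR called 0 outside the leukocyte list. Outside it an unadjusted p under 0.05 was found for 3 basal, 3 endothelial, 1 fibroblast or smooth muscle and 1 neutrophil marker, and DESeq2 called 1, 2, 0 and 0. In the leukocyte list 6 of the 7 tested had an unadjusted p under 0.05, and DESeq2 called 4. Over all genes 15.5% had an unadjusted p under 0.05 at 1 week and 21.5% at 1 month, and edgeR called 0.0627% at 1 week. None of the markers of these 5 lists was at 0 throughout a group. The 5 intestinal markers summed to at most 18.8 CPM, and Cdx1 and Cdx2, the transcription factors that define that epithelium, had 0 counts in all 12 libraries.

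The other gasdermins were low. Gsdma averaged 2.723 ± 0.633 CPM in WT against 5.915 ± 1.18 CPM in KO at 1 week, with KO above WT in every library (log2 difference 1.14, SE 0.41, edgeR adjusted p = 0.256). KO lay wholly above WT for 13.2% of all genes tested at that time. At 1 month it averaged 4.687 ± 1.97 and 2.708 ± 1.07 CPM (difference -0.79, SE 0.47, edgeR adjusted p = 0.351). Gsdme, listed as Dfna5 and cleaved by caspase-3, stood between 2.444 and 3.406 CPM in the 4 group means, with differences of -0.22 at 1 week and 0.02 at 1 month. Gsdma2 had at most 5 counts in any library, pejvakin (Dfnb59) at most 6, and Gsdma3 was at 0 in all 12, where a count of 0 allows up to 0.632 CPM.

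The genes that act around gasdermins, the inflammasome sensors, caspases, cytokines and other death effectors, gave no edgeR call at either time. Over all genes edgeR called 0.0627% of those tested at 1 week and 2.22% at 1 month. Of 43 listed genes 42 had a row, and 30 were tested at 1 week, with 19 higher and 11 lower, a median of 0.23 against 0.02 for all genes, 0 called by edgeR, 9 at an unadjusted p under 0.05 (15.5% of all genes) and 4 called by DESeq2. At 1 month 29 were tested, with 12 higher and 17 lower, a median of -0.10 against -0.01, 0 called by edgeR, 8 at an unadjusted p under 0.05 (21.5% of all genes) and 2 called by DESeq2. In the test of the difference between times 0 of 32 were called by edgeR, 11 had an unadjusted p under 0.05 (19.9% of all genes) and DESeq2 called 4.

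At 1 week the smallest p-values of that list belonged to Il1rn, Il18 and Mlkl. Il1rn, the antagonist of the interleukin-1 receptor, averaged 7.511 ± 1.38 CPM in WT and 48.48 ± 30.7 CPM in KO (log2 difference 2.71, SE 0.50, edgeR adjusted p = 0.0997). Il18, a cytokine released through gasdermin pores, averaged 4.353 ± 0.364 and 13.26 ± 5.9 CPM (1.63, SE 0.45, edgeR adjusted p = 0.171). Mlkl, the pore-forming effector of necroptosis, averaged 7.406 ± 0.389 and 20.91 ± 9.03 CPM (1.51, SE 0.42, edgeR adjusted p = 0.171). For each of these KO lay above WT without overlap, as did 13.2% of all genes, and none passed the edgeR threshold.

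At 1 month the smallest p-values belonged to Casp12, Irf1 and Naip6. Casp12, a caspase of the inflammatory group, averaged 10.08 ± 3.93 CPM in WT and 21.91 ± 7.98 CPM in KO (1.12, SE 0.27, edgeR adjusted p = 0.0505). Irf1, an interferon-induced transcription factor, averaged 15.25 ± 9.49 CPM in WT and 32.99 ± 22.5 CPM in KO (1.08, SE 0.27, edgeR adjusted p = 0.0518). Naip6, of the family of bacterial protein sensors, averaged 3.077 ± 3.79 and 7.041 ± 6.97 CPM (1.39, SE 0.44, edgeR adjusted p = 0.102), and its near-identical family members may share reads. None of these passed the edgeR threshold.

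No chromosomal neighbour of the gasdermins was called. Of 22 neighbouring genes with a row, 13 were tested at 1 week and 12 at 1 month, and edgeR and DESeq2 called 0 at either time, with 1 and 0 at an unadjusted p under 0.05. Over all genes edgeR called 0.0627% at 1 week and 2.22% at 1 month, so few calls were to be had in lists this short. An unadjusted p under 0.05 was found for 15.5% and 21.5% of all genes. The median log2 difference was 0.18 at 1 week and 0.01 at 1 month. Fam49b, 16.8 kb beyond Gsdmc4, differed by -0.63 (edgeR adjusted p = 0.649) and 0.31 (edgeR adjusted p = 0.384). On the other side the nearest gene with a row, Pvt1, lies 1397.9 kb away and differed by -0.42 and -0.12. Next to Gsdmd, Zc3h3 differed by 0.98 and -0.35 and Naprt1 by 0.18 and -0.02, none of them called.

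The genes whose log2 CPM ran most like the Gsdmc sum over the 12 libraries, among 11572 genes with a mean of at least 20 counts, were Map2k3 (Pearson's r 0.959), Lamtor3 (0.957), Mfsd1 (0.955), Snord104 (0.953) and Vapa (0.945). Libraries share batches, and with each batch centred the list became Hspa1b (0.964), 2610039C10Rik (0.949), Camsap1 (0.938), Slc45a3 (0.936) and Tor1aip2 (0.935). By Spearman's rho, 0 of the first 5 and 1 of the second 5 were again among the top 5. For Gsdmd the most alike were Tmem186 (0.969), Fbxo6 (0.956), Git1 (0.956), Rasgrf2 (0.953) and Qdpr (0.947), and with batches centred Ddx20 (0.961), Cdc25a (0.958), Enox2 (0.953), Add1 (0.940) and Ik (0.937). None of the genes most like the Gsdmc sum or Gsdmd was called between genotypes by edgeR at either time, with Ddx20 not tested at 1 month. At 1 month Map2k3, Lamtor3, Mfsd1, Snord104, Hspa1b, Slc45a3 and Tor1aip2 were higher in KO at an unadjusted edgeR p under 0.05. Vapa, 2610039C10Rik, Camsap1 and the genes like Gsdmd had larger p-values, and 21.5% of all genes passed. Genes chosen for following the Gsdmc sum over these libraries share its differences, so this is not a separate result.

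Hspa1b encodes an inducible heat shock protein of the Hsp70 family and has a near-identical copy, Hspa1a, with which it may share reads. It stood at 13.91, 29.91 and 11.47 CPM in WT against 6.403, 54.7 and 8.903 CPM in KO at 1 week. At 1 month it stood at 1.263, 1.878 and 16.69 CPM in WT and 11.51, 13.33 and 17.45 CPM in KO. Its high libraries at 1 week, replicate 2 of either genotype, and its low ones, WT replicates 1 and 2 of 1 month, were those of the Gsdmc sum, and its part in the Gsdmc2 difference was not tested.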

How the data were processed

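Urothelial RNA was made into stranded 3′ libraries (QuantSeq FWD), per the labels' protocols. The submitters' processing notes name mm10, Bowtie, TopHat, HTSeq and DESeq2, and the annotation is not given in the sources used here. The authors deposited whole-number counts per gene, unnormalized, in 1 table per time point. From these, edgeR 4.0.16 (R 4.3.3) gave TMM-scaled CPM and, after its default low-count filter, robust two-sided quasi-likelihood tests, whose p-values were adjusted by Benjamini-Hochberg across every gene tested. Libraries of 1 week were fitted alone, those of 1 month with batch as a term, and the change between times over all 12. Log2 CPM used a prior count of 2. DESeq2 1.42.0, other scalings, filters and left-out libraries were alternatives, and the tests were tested on simulated data, where far fewer of the planted changes were recovered at 1 week and for the change between times than at 1 month. Sequence identity and shared words came from the mm10 genome and GENCODE M21.

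The members, and the marker, pyroptosis and neighbour lists, were chosen with earlier results of these data known. Named were all members, the other gasdermins, the 3 pyroptosis genes with the smallest p at each time, the 5 genes with the highest correlation to the Gsdmc sum and to Gsdmd, the nearest neighbours, and the uroplakins with Krt20. Tjp1 is named as 1 of 2 markers called, the cell type markers Cdx1 and Cdx2 as those at 0. Totals of 5580961 to 9497088 counts limit the precision for genes near 3 counts.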

Additional observations from a re-analysis of the deposited data

How the results depend on the processing

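Leaving out the batch term ended the Gsdmc2 call at 1 month, as given above, and left 0 of the 269 genes called. The number of genes called at 1 week, 8, became 62 without the low-count filter and 957 with DESeq2, and 0 to 320 when 1 library was left out. At 1 month 269 became 561 with library size alone, 1276 without the filter, 781 with DESeq2, 1474 with batch 2 alone, and 45 to 1522 with 1 library left out. For the change between times 0 became 137 without the filter, 917 with DESeq2, and 0 to 440 with 1 library left out. The cause of these shifts was not tested. Leaving out a batch 3 library leaves its partner absorbed by the batch term.

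Among the other gasdermins and pyroptosis genes, 0 called at 1 week became 4 with DESeq2 and 0 to 2 with 1 library left out. At 1 month 0 became 2 with DESeq2-type size factors, 2 with library size alone, 3 without the filter, 1 with a mean of at least 20 counts, 2 with DESeq2, 1 with batch 2 alone, and 0 to 2 with 1 library left out. For the change between times it became 1 without the filter, 5 with DESeq2, and 0 to 3 with 1 library left out. No neighbouring gene was called under any alternative.

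The log2 difference of the Gsdmc sum ran from -1.08 (without KO replicate 2) to 0.83 at 1 week, from 1.17 to 1.76 at 1 month and from 0.53 to 2.45 for the change between times when 1 library was left out, and was 0.84 at 1 month without the batch term. Gsdmc2 at 1 week was -0.02 without the filter and -1.13 to 0.55 with 1 library left out. With 1 library left out at 1 week Gsdmc ran from -0.43 to 0.72, Gsdmc3 from -1.18 to 1.70 and Gsdmd from -0.09 to 0.26. The change between times for Gsdmd was 0.14 with library size alone and -0.26 to 0.07 with 1 library left out. The difference in the share of Gsdmc ran from -0.0919 (without KO replicate 3) to 1.49 points at 1 week and from -0.738 (without WT replicate 1) to 1.05 points at 1 month, where it was -0.201 without KO replicate 1. For the share of Gsdmc3 at 1 week it ran from -0.172 (without KO replicate 2) to 8.99 points.

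No paired analysis was possible because the labels carry no replicate numbers, and those used here only follow the order of the samples. Depth limits Gsdmc4 at 1 month and Gsdmc in WT replicate 1 of that time, where counts were at or under 3.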

Other observations

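A pseudogene of the family, Gsdmcl-ps, lies 2.2 kb beyond Gsdmc4 on the opposite strand. It had 0, 0 and 4 counts in WT and 5, 9 and 6 counts in KO at 1 week, and 2, 0 and 6 counts in WT and 4, 1 and 2 counts in KO at 1 month. At 1 week every KO library was above every WT library, at counts near the floor of 3 and too low to be tested. KO also lay wholly above WT for Gsdmc4 and for 13.2% of all genes tested at that time. Gsdmcl1, a gene model inside the cluster between Gsdmc2 and Gsdmc3, had 0 counts in all 12 libraries.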
